A study of Mus musculus with 16 samples.

Results

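Dendritic cells take up antigen in tissues and present it to T cells, and they fall into subsets that are told apart by a few genes. The 8 genes described are Flt3, Zbtb46, Irf8, Batf3, Xcr1, Clec9a, Cd209a and Siglech, chosen by name as genes of these subsets and found in the count table by Ensembl gene ID, 8 of 54752 gene IDs in all. RNA of the inguinal fat pad (iWAT, a subcutaneous white fat depot) was sequenced in 16 libraries from mice labelled as females aged 90 days on a C57BL/6 background, 4 libraries of each of 4 genotypes. WT animals had neither allele. Lepob/+ animals were heterozygous for ob, a null allele of the gene for the adipocyte hormone leptin. SOD1G93A animals had a high-copy transgene of mutant human SOD1, a model of amyotrophic lateral sclerosis, and SOD1G93A-Lepob/+ animals had both. The transgene runs from the human SOD1 promoter and is not limited to a tissue. The study bred the mice by crossing Lepob/+ females with SOD1G93A males, which puts all 4 genotypes in the same matings. The study asks how lower leptin changes the fat of SOD1G93A mice.

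Dendritic cells arise from bone marrow progenitors that need the receptor tyrosine kinase Flt3 and its ligand. Irf8 is required for the plasmacytoid lineage, the source of type I interferon, and, with Batf3, for conventional dendritic cells of type 1 (cDC1), which carry Xcr1 and Clec9a and present antigen from dead cells to CD8 T cells. Conventional dendritic cells of type 2 (cDC2) prime CD4 T cells. The factor Zbtb46 marks conventional dendritic cells but is also made by endothelium, and the lectin Cd209a marks cDC2 and monocyte-derived cells.

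Total counts per library ran from 36.8 to 61.9 M (M, mega counts). Levels are given as CPM (counts per M counts of the library, after TMM scaling). All 8 genes passed the filter on low counts with 19736 genes in all, and had between 15 counts (Xcr1 in Lepob/+ replicate 4) and 7257 counts (Irf8 in SOD1G93A replicate 2) in a library. A pair of libraries stood apart from the rest. Lepob/+ replicate 4 held skeletal muscle transcripts at a summed 177924 CPM, against 9.21 to 4469 CPM in the other libraries. The library labelled SOD1G93A-Lepob/+ replicate 3 had 0 counts of Xist and 1756 counts of Y chromosome genes, where the 15 others had at least 11895 and 0. In 6 libraries (WT replicates 1 and 2, Lepob/+ replicate 3, and SOD1G93A replicates 1, 2 and 4) the summed T cell markers lay at 697 to 1405 CPM, and in the 10 others at 10.4 to 31.7 CPM. Summed B cell markers lay at 611 to 1956 CPM against 6.35 to 28.3 CPM, and markers of the stroma and venules of lymph nodes at 518 to 1099 CPM against 11.98 to 52.3 CPM. Among single markers, the T cell factor Tcf7 lay at 132 to 299 CPM against 1.56 to 5.83 CPM and the B cell receptor subunit Cd79a at 119 to 343 CPM against 0.566 to 3.83 CPM. Glycam1, a ligand for lymphocyte homing, lay at 203 to 614 CPM and Ccl21a at 205 to 368 CPM in the 6 libraries, with 0 Glycam1 counts in 9 of the 10 others. The 6 are called lymphoid-high below. They were picked by the widest gap, on a log scale, in the summed markers of lymph node stroma and venules. Glycam1 and Ccl21a are in that list, so their separation is in part built into the choice. The lymphoid-high libraries are a description and not a group of the study. None of the 4 SOD1G93A-Lepob/+ libraries was among them. The adipocyte marker Fabp4 was at 5343 CPM or more in every library.

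The regions just before the transcription start are shown for the 4 genes that stood together across libraries in the results below (Flt3, Xcr1, Irf8, Siglech) and for Cd209a, which did not. They are 250 bases each from the RefSeq promoters of GRCm38.p6, written 5′ to 3′ on the strand of the gene, and capitals mark a motif match. RefSeq had an entry for all 8 genes and a second start for Irf8, of which the first is shown.
Flt3 (chr5:147400490-147400739, minus strand): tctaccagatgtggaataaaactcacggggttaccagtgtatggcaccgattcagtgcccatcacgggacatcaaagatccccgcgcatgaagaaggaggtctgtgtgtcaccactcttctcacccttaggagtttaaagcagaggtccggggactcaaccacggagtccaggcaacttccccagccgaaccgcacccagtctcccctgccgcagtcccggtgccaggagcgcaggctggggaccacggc
Xcr1 (chr9:123862030-123862279, minus strand): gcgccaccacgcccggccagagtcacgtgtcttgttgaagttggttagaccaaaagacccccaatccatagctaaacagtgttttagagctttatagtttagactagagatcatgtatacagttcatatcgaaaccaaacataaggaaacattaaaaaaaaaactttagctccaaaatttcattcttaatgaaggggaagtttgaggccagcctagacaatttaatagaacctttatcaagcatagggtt
Irf8 (chr8:120736108-120736357, plus strand): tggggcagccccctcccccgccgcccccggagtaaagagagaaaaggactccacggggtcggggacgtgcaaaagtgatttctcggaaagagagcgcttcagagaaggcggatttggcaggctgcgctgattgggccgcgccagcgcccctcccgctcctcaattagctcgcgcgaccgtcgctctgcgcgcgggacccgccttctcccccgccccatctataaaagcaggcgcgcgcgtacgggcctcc
Siglech (chr7:55767934-55768183, plus strand): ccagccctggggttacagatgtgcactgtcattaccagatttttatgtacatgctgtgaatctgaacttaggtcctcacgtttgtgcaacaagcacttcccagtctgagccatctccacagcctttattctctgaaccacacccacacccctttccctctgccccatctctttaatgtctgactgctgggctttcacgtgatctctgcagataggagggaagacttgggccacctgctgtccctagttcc
Cd209a (chr8:3748985-3749234, minus strand): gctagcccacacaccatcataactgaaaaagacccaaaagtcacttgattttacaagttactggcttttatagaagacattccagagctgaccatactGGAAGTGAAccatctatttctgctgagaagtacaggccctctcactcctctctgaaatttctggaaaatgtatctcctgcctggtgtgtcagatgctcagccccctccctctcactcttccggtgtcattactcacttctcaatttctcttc
The letters searched on both strands were GGAANNGAA, the composite element to which Irf8 binds with an ETS factor, GAAANNGAA, the core of an interferon response element, and TGANTCA, the site of AP-1 and Batf proteins. They were held by 6.992%, 7.129% and 6.749% of 32851 RefSeq promoters of this length. Among the members, 2 of 9 windows held a match. Cd209a held GGAANNGAA with its first letter 152 bases before the start, and Zbtb46 held TGANTCA 61 bases before a RefSeq start that lies inside the gene as GENCODE places it. None of the 4 genes that stood together held these letters in this window. Their windows did not share a base composition, with 59.2% G and C in Flt3, 38.8% in Xcr1, 67.2% in Irf8 and 50.8% in Siglech.

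Per length of exon, Cd209a, Irf8, Batf3 and Zbtb46 were the more abundant members and Siglech, Clec9a, Flt3 and Xcr1 the scarcer ones. The median level over the 16 libraries was 7.15 CPM per kb for Cd209a, 4.74 for Irf8, 3.89 for Batf3 and 3.27 for Zbtb46, and then 0.866 for Siglech, 0.751 for Clec9a, 0.432 for Flt3 and 0.244 for Xcr1. The ranges of neighbours in this order overlapped, except between Zbtb46 (2.51 CPM per kb at its lowest) and Siglech (2.07 at its highest). Flt3 and Xcr1, the lowest of the 8 by median, were also the most variable, with a spread around their mean of 1.67 and 1.41 on the log2 CPM scale (root mean square over 16 libraries). Irf8 had 1.05, Clec9a 0.97, Siglech 0.92, Cd209a 0.55, Batf3 0.47 and Zbtb46 0.22. In Flt3 the highest library was 20.96-fold above the lowest, and in Zbtb46 1.80-fold.

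Flt3 (ENSMUSG00000042817, chr5:147330741-147400489 of GRCm38, minus strand), the receptor on which all these subsets depend, had a high and a low level with nothing between them. It was at 22.6, 19.0, 2.61 and 2.72 CPM in WT replicates 1 to 4, and at 1.89, 2.20, 24.4 and 1.17 CPM in Lepob/+. In SOD1G93A it was at 18.7, 22.7, 3.26 and 21.5 CPM, and in SOD1G93A-Lepob/+ at 1.55, 1.60, 2.36 and 1.94 CPM. The 6 lymphoid-high libraries held 18.7 to 24.4 CPM and the 10 others 1.17 to 3.26 CPM, and the SOD1G93A-Lepob/+ libraries were all below every SOD1G93A library. SOD1G93A replicate 3, the SOD1G93A library that was not lymphoid-high, stood at 3.26 CPM, near the double mutant.

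Irf8 (ENSMUSG00000041515, chr8:120736358-120756694, plus strand), the factor of the plasmacytoid and cDC1 lineages that B cells and macrophages also make, divided the libraries in the same way. It was at 107, 108, 24.1 and 38.2 CPM in WT and at 27.6, 36.7, 137 and 28.3 CPM in Lepob/+. In SOD1G93A it was at 98.5, 164, 24.0 and 110.1 CPM, and in SOD1G93A-Lepob/+ at 23.4, 30.2, 28.3 and 21.2 CPM. The 6 lymphoid-high libraries were again above the others, at 98.5 to 164 CPM against 21.2 to 38.2 CPM. SOD1G93A and SOD1G93A-Lepob/+ overlapped, since SOD1G93A replicate 3 lay within the range of the double mutant.

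The cDC1 genes Xcr1 and Clec9a followed each other only in part. Xcr1 (ENSMUSG00000060509, chr9:123852315-123862029, minus strand), the receptor for the T cell chemokine Xcl1, was at 4.73, 3.96, 1.91 and 1.27 CPM in WT and at 0.623, 0.904, 5.76 and 0.500 CPM in Lepob/+. In SOD1G93A it was at 4.41, 9.51, 0.656 and 4.66 CPM, and in SOD1G93A-Lepob/+ at 0.708, 0.749, 0.612 and 0.562 CPM. Xcr1 divided the libraries as Flt3 did, at 3.96 to 9.51 CPM in the 6 lymphoid-high libraries and 0.500 to 1.91 CPM in the others. Clec9a (ENSMUSG00000046080, chr6:129408862-129424763, plus strand), a receptor for actin exposed on dead cells, was at 8.29, 8.26, 2.94 and 0.952 CPM in WT and at 2.43, 1.49, 7.70 and 1.70 CPM in Lepob/+. In SOD1G93A it was at 2.52, 4.45, 2.23 and 3.00 CPM, and in SOD1G93A-Lepob/+ at 0.819, 2.60, 1.59 and 1.80 CPM. Its 5 highest libraries were lymphoid-high, but SOD1G93A replicate 1, also lymphoid-high, lay below WT replicate 3, so that the ranges of 2.52 to 8.29 CPM and 0.819 to 2.94 CPM overlapped. Batf3 (ENSMUSG00000026630, chr1:191097847-191108945, plus strand), the cDC1 factor that T cells also express, was at 6.44, 7.51, 6.999 and 11.8 CPM in WT, 5.95, 10.4, 5.95 and 6.96 CPM in Lepob/+, 5.99, 8.49, 3.82 and 5.77 CPM in SOD1G93A and 4.58, 6.75, 4.13 and 3.45 CPM in SOD1G93A-Lepob/+. Its highest value, in WT replicate 4, was in a library that was not lymphoid-high, and all 4 genotypes overlapped.

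**Figure D1:**
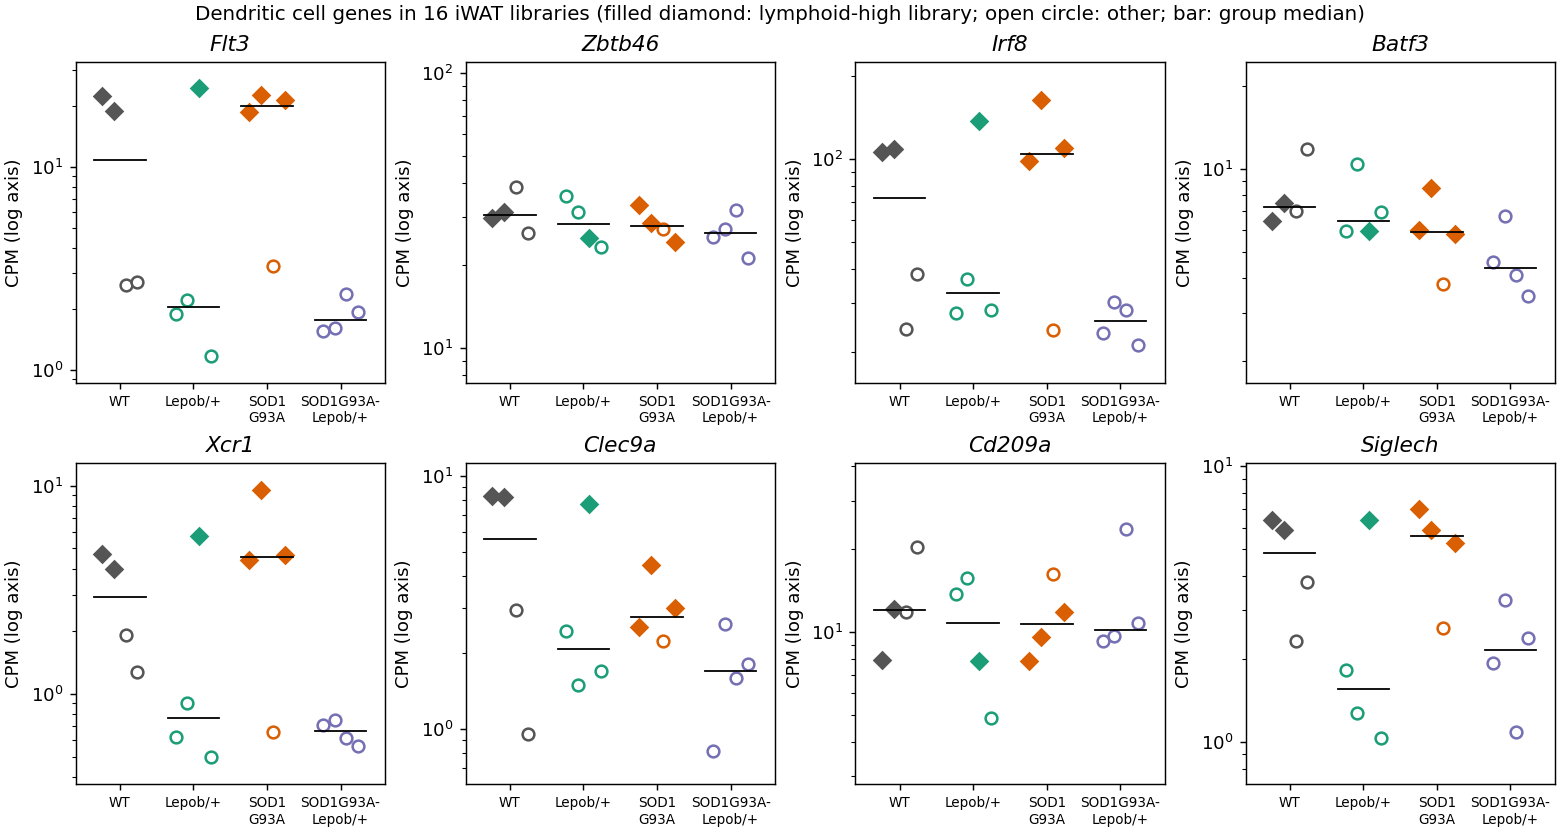
Level of each of the 8 genes (CPM, log axis) in the 4 libraries of each genotype, with filled diamonds for the 6 lymphoid-high libraries, open circles for the 10 others and a bar at the median of 4. The diamonds lie above every circle in the panels of Flt3, Irf8, Xcr1 and Siglech, and among the circles in those of Zbtb46, Batf3 and Cd209a.

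Siglech (ENSMUSG00000051504, chr7:55768178-55778925, plus strand), a lectin on the surface of plasmacytoid dendritic cells, was at 6.397, 5.90, 2.32 and 3.81 CPM in WT and at 1.83, 1.27, 6.41 and 1.03 CPM in Lepob/+. In SOD1G93A it was at 7.01, 5.90, 2.59 and 5.29 CPM, and in SOD1G93A-Lepob/+ at 1.93, 3.27, 1.09 and 2.39 CPM. The gap was narrower than in Flt3, with 5.29 to 7.01 CPM in the lymphoid-high libraries and 1.03 to 3.81 CPM in the others, and SOD1G93A replicate 3 lay inside the range of the double mutant.

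Zbtb46 and Cd209a overlapped between lymphoid-high and other libraries. Zbtb46 lay at 24.3 to 33.3 CPM against 21.4 to 38.5 CPM, and Cd209a at 7.84 to 12.2 CPM against 4.90 to 23.6 CPM. Zbtb46 (ENSMUSG00000027583, chr2:181387762-181459426, minus strand) was at 29.8, 31.3, 38.5 and 26.2 CPM in WT, 35.8, 31.2, 25.1 and 23.2 CPM in Lepob/+, 33.3, 28.5, 27.0 and 24.3 CPM in SOD1G93A and 25.3, 27.1, 31.8 and 21.4 CPM in SOD1G93A-Lepob/+. The summed markers of blood vessel endothelium, a cell type that also makes Zbtb46, lay at 765 to 1021 CPM in the lymphoid-high libraries and at 1058 to 1709 CPM in the others, and their part in the level of Zbtb46 was not tested. Cd209a (ENSMUSG00000031494, chr8:3743397-3748984, minus strand) was at 7.90, 12.2, 11.9 and 20.5 CPM in WT, 13.8, 15.7, 7.87 and 4.90 CPM in Lepob/+, 7.84, 9.62, 16.3 and 11.9 CPM in SOD1G93A and 9.30, 9.67, 23.6 and 10.8 CPM in SOD1G93A-Lepob/+. Its 4 highest values, in the library labelled SOD1G93A-Lepob/+ replicate 3, WT replicate 4, SOD1G93A replicate 3 and Lepob/+ replicate 2, were all in libraries that were not lymphoid-high.

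Of the 8 genes, 4 (Flt3, Xcr1, Irf8 and Siglech) were higher in every lymphoid-high library than in any other, as were 2218 of the 19736 genes tested (11.2%). The other dendritic cell genes were read from lists of other subset genes, which hold none of the 8. Of 13 genes of mature, migratory dendritic cells 9 had this pattern, of 11 plasmacytoid genes 5, of 10 cDC1 genes 4, of 12 genes of development and of dendritic cells in general 3, and of 9 cDC2 genes 0. All 12 T cell genes, all 10 B cell genes and 6 of 8 genes of lymph node stroma had it. It was held by 0 of 12 macrophage, 0 of 10 endothelial, 0 of 8 adipocyte and 0 of 10 muscle genes. The sum of the stroma list picked the 6 libraries, so the count of that list was in part fixed by the choice. Ccr7, the receptor by which dendritic cells and T cells enter lymph nodes, lay at 76.1 to 126 CPM in the lymphoid-high libraries and 0.366 to 2.30 CPM in the others. The plasmacytoid gene Klk1 lay at 1.62 to 3.24 CPM in the 6 libraries and had 0 counts in all 10 others, where a count of 0 allows up to 3 counts. In contrast, the cDC2 lectin Mgl2 lay at 38.0 to 114 CPM and 62.8 to 233 CPM, and the macrophage gene Csf1r at 161 to 453 CPM and 155 to 678 CPM. In bulk tissue, fewer cells of a type and less RNA per cell cannot be told apart, and the part of lymph node content in the levels of the members was not tested by these ranges.

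**Figure D2:**
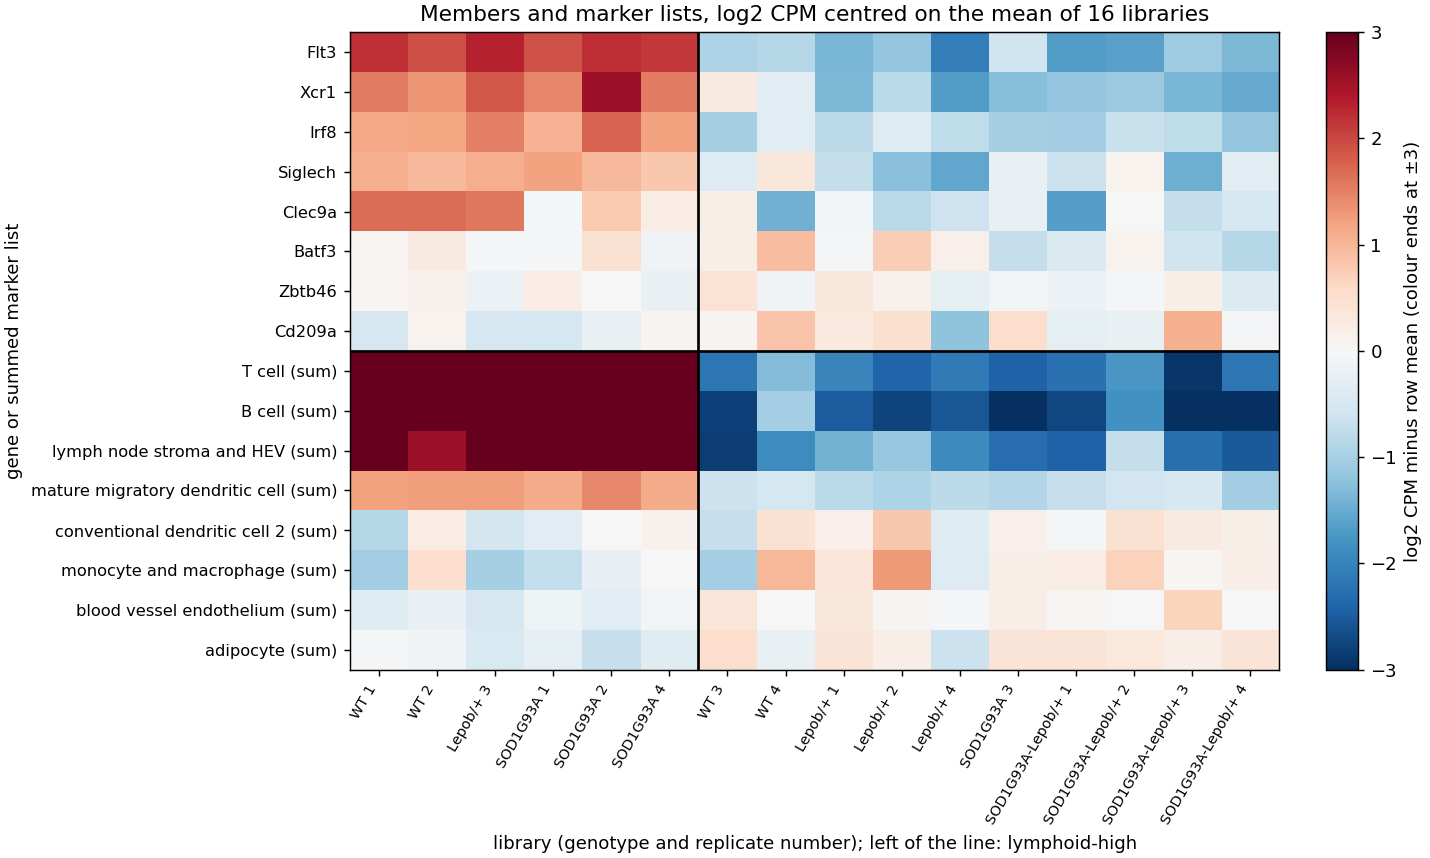
Log2 CPM minus the mean of 16 libraries (colour, from -3 in blue to 3 in red) for the 8 genes (upper rows) and the summed CPM of marker lists without them (lower rows), with the 6 lymphoid-high libraries left of the vertical line. Flt3, Xcr1, Irf8 and Siglech and the sum of mature migratory dendritic cell genes are red in all 6 and mostly blue in the 10 others, while Batf3, Zbtb46, Cd209a and the sum of cDC2 genes show no such division.

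SOD1G93A-Lepob/+ was compared with SOD1G93A to see what the ob allele changes in mice with the transgene. Of the 8 genes, 7 were lower in the double mutant and Cd209a was higher, with a median log2 fold change (log2FC) of -1.05, where the median of all genes tested was 0.00. By edgeR's quasi-likelihood test with Benjamini-Hochberg adjustment over 19736 genes, 0 of the 8 and 0 of all genes (0%) passed an adjusted p under 0.05. At an unadjusted p under 0.05 there were 4 of the 8, and 3261 of all genes (16.5%). DESeq2, the tool the study used, called 4 of the 8 when fitted on the 8 libraries of both genotypes, where it called 8.9% of all genes, and 3 of the 8 on all 16 libraries, where it called 3.09%. The groups did not overlap in 1 of the 8 genes, Flt3, and in 7.18% of all genes.

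Flt3 averaged 16.5 ± 9.01 CPM in SOD1G93A and 1.86 ± 0.374 CPM in SOD1G93A-Lepob/+ (SD, n = 4 each), a log2FC of -3.15 ± 1.03 (± SE, the standard error, as for all log2FC values below, with a 95% interval -5.36 to -0.94). Its adjusted p was 0.261 from edgeR and 3.79e-07 from DESeq2 on the 8 libraries. Xcr1 was at 4.81 ± 3.63 and 0.658 ± 0.0862 CPM, a log2FC of -2.86 ± 0.85, with an adjusted p of 0.261 from edgeR and 0.000325 from DESeq2. For both genes 3 of the SOD1G93A libraries were high and 1 was low. Irf8 was at 99.1 ± 57.6 and 25.8 ± 4.21 CPM, a log2FC of -1.94 ± 0.65, with an adjusted p of 0.261 from edgeR and 0.00147 from DESeq2. Siglech was at 5.20 ± 1.88 and 2.17 ± 0.912 CPM, a log2FC of -1.26 ± 0.56, with an adjusted p of 0.288 from edgeR and 0.0308 from DESeq2. These 4 are the genes that divided the libraries by lymphoid content, and the same 4 were called by voom of limma with quality weights (adjusted p 0.00504 to 0.00586), which called 31.5% of all genes.

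The other 4 genes had smaller differences. Clec9a had a log2FC of -0.84 (95% interval -2.22 to 0.54), Batf3 of -0.35 (-0.97 to 0.28), Zbtb46 of -0.10 (-0.46 to 0.27) and Cd209a of 0.23 (-0.66 to 1.11), all with an adjusted p from edgeR of at least 0.512. The interval of Zbtb46 was the narrowest and that of Clec9a the widest of these 4. When the level of the lymph node stroma list entered the edgeR fit as a covariate, the log2FC was -0.51 for Flt3, -0.55 for Xcr1, -0.12 for Siglech and -0.13 for Irf8, and 0 of the 8 genes had an unadjusted p under 0.05 (3.99% of all genes). Since the SOD1G93A-Lepob/+ group held no lymphoid-high library and the SOD1G93A group held 3, genotype and lymphoid content cannot be told apart in this comparison. Without the library labelled SOD1G93A-Lepob/+ replicate 3 and Lepob/+ replicate 4, a choice made after seeing the data, 3 of the 8 genes had an unadjusted p under 0.05 (15% of all genes in that fit) and the log2FC of Cd209a was -0.20.

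**Figure D3:**
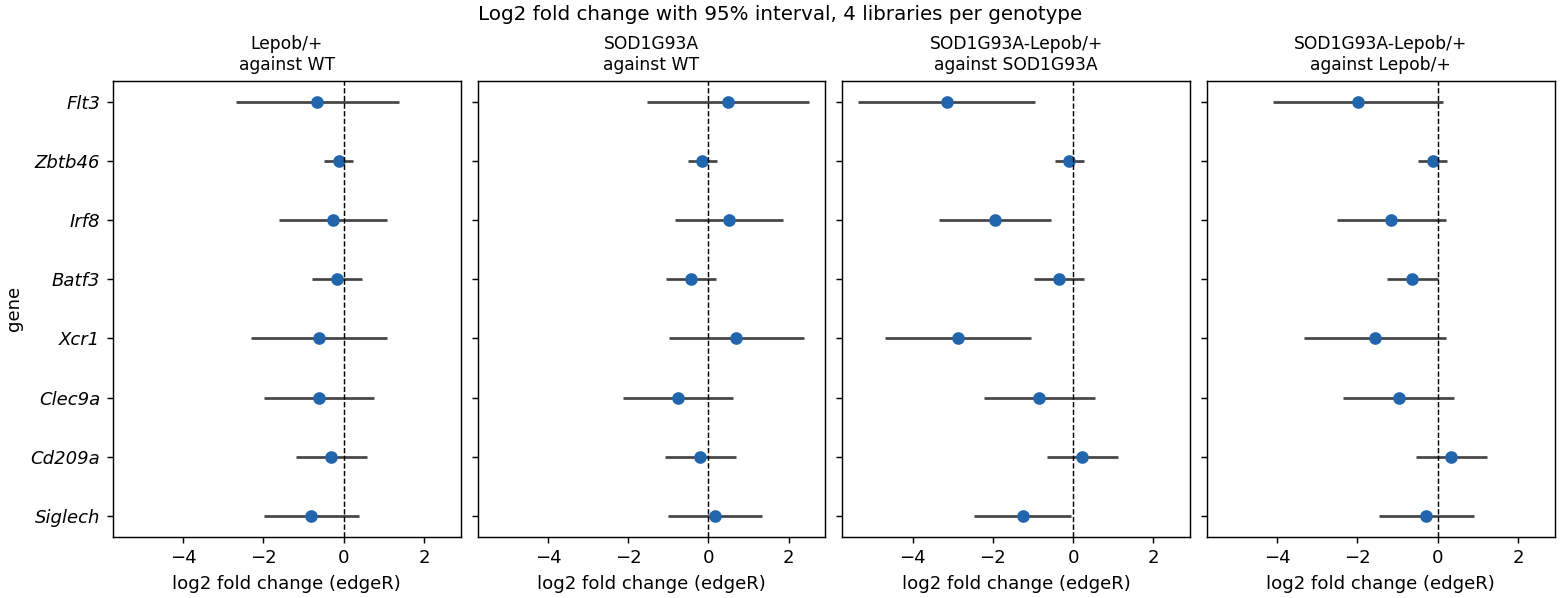
Log2 fold change of each of the 8 genes from edgeR (points) with its 95% interval (lines) in 4 comparisons of genotypes, 4 libraries per genotype. The intervals of Flt3, Irf8, Xcr1 and Siglech lie below 0 for SOD1G93A-Lepob/+ against SOD1G93A, and those of Zbtb46 are the narrowest in every panel.

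Other genes of the same subsets were read in this comparison from the lists. Over all genes tested, 16.5% had an unadjusted edgeR p under 0.05, and DESeq2 on the compared genotypes called 8.9%. Of 10 cDC1 genes 4 lay higher and 6 lower in the double mutant (median log2FC -0.39). EdgeR placed 3 at an unadjusted p under 0.05, all lower in the double mutant, and DESeq2 called 4, all lower. Itgae, the integrin CD103 of cDC1 and of T cells, had a log2FC of -3.45 ± 1.03, and Wdfy4, which cDC1 need to cross-present antigen, of -1.69 ± 0.66, while Snx22 had -1.13 ± 0.44. Of 11 plasmacytoid genes 4 lay higher and 7 lower (median log2FC -1.88). This median is the value of Cox6a2 (edgeR unadjusted p 0.371), which ran from 0 to 575 CPM over the libraries that were not lymphoid-high. Of the 11 genes 4 had an unadjusted p under 0.05, all lower, and DESeq2 called 4. Among them Spib, a factor of plasmacytoid dendritic cells and of B cells, was at 71.6, 151, 0.535 and 94.3 CPM in SOD1G93A and at 0.908, 1.12, 0.952 and 0.365 CPM in SOD1G93A-Lepob/+. SOD1G93A replicates 1, 2 and 4 were high and replicate 3 was within the range of the double mutant, as for Irf8. Pacsin1 had a log2FC of -3.84 ± 1.49, and Klk1 had 0 counts in all SOD1G93A-Lepob/+ libraries.

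Of 13 mature, migratory dendritic cell genes all were lower in the double mutant (median log2FC -1.46). The unadjusted edgeR p was under 0.05 for 8 (16.5% of all genes), 0 passed after adjustment, and DESeq2 called 6 (8.9% of all genes). Ccr7 had a log2FC of -5.99 ± 2.03 and Apol7c of -5.83 ± 2.02. Il12b, a subunit of the cytokine IL-12, had 0 counts in all 4 SOD1G93A-Lepob/+ libraries, a log2FC of -5.66 or lower when 3 counts over the group are taken as its limit. Among 9 cDC2 genes, 7 lay higher and 2 lower in the double mutant (median log2FC 0.44). None of them had an unadjusted p under 0.05 by edgeR, and DESeq2 called 1, Mgl2, higher (log2FC 0.62 ± 0.47, DESeq2 adjusted p 0.0344). DESeq2 called 8.9% of all genes, so 1 of 9 is near that share and is not read as a trait of cDC2 genes. Also named from this list were Cd300a, an inhibitory receptor, at 0.58 ± 0.38 and the factor Klf4 at 0.44 ± 0.36. Of 12 genes of development and of dendritic cells in general 6 were higher and 6 lower. Of the 12, 3 were lower at an unadjusted edgeR p under 0.05, a threshold met by 16.5% of all genes. These were Ciita, the activator of MHC class II genes (-2.01 ± 0.64), and a pair of ligands. Flt3l, the growth factor that Flt3 binds, had a log2FC of -0.81 ± 0.30, and Xcl1, the ligand of Xcr1, of -2.53 ± 0.88. Both ligands are made by lymphocytes among other cells, and both lay higher in every lymphoid-high library than in any other, Flt3l at 40.6 to 63.7 CPM against 20.5 to 31.9 CPM and Xcl1 at 1.34 to 3.08 CPM against 0.159 to 0.740 CPM.

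In the same comparison all 12 T cell genes and all 10 B cell genes were lower with an unadjusted p under 0.05, with median log2FC values of -5.90 and -6.93. All 8 genes of lymph node stroma were lower, 6 of them at that threshold, which 16.5% of all genes met. Markers of macrophages, a cell type that also makes Irf8, were higher in 10 of 12 genes with a median of 0.53, and 0 had an unadjusted p under 0.05. All 10 endothelial genes (median 0.35) and all 8 adipocyte genes (median 0.47) were higher, 1 of the adipocyte genes with an unadjusted p under 0.05, and 9 of 10 muscle genes were lower (median -1.16). The part of these cell types in the differences of the members was not tested.

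SOD1G93A-Lepob/+ was also compared with Lepob/+, the effect of the transgene in mice with the ob allele. This comparison shares the SOD1G93A-Lepob/+ libraries with the one above. Of the 8 genes 7 were lower and Cd209a was higher (median log2FC -0.80) against -0.06 for all genes. By edgeR 0 of the 8 and 0% of all genes passed, 1 of the 8 (Batf3) and 8.24% of all genes had an unadjusted p under 0.05, the groups overlapped in all 8 and did not overlap in 2.35% of all genes. DESeq2 on the 8 libraries called 0 of the 8, where it gave no adjusted p for Flt3, Xcr1 and Irf8, and 0.193% of all genes. Batf3 averaged 7.32 ± 2.12 CPM in Lepob/+ and 4.73 ± 1.42 CPM in the double mutant (SD, n = 4 each), or -0.63 ± 0.29 in log2FC, with an edgeR adjusted p of 0.602. Flt3 had a log2FC of -2.00 (95% interval -4.11 to 0.12), Xcr1 of -1.56 (-3.32 to 0.20) and Irf8 of -1.16 (-2.52 to 0.21). These 3 values rested on Lepob/+ replicate 3, and without it they were 0.089 for Flt3, -0.036 for Xcr1 and -0.26 for Irf8. Siglech had -0.28, and 0.66 without that library.

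Lepob/+ was compared with WT for the effect of the ob allele alone. All 8 genes were lower in Lepob/+ in the fitted values, with a median log2FC of -0.46 against 0.03 for all genes, and none passed adjustment by any tool. Voom gave 4 of the 8 (Flt3, Xcr1, Siglech and Irf8) an unadjusted p under 0.05, as it did 1224 of 19736 genes, with adjusted p of 0.660 for these 4. By edgeR 0 of the 8 passed (0% of all genes), 0 of the 8 had an unadjusted p under 0.05 (4.37% of all genes), DESeq2 on the 8 libraries called 0 of the 8 (0.0223% of all genes), and the groups overlapped in all 8 (0.907% of all genes did not). Siglech had the lowest value, -0.80 (95% interval -1.99 to 0.38), and Zbtb46 had -0.12 (-0.49 to 0.24). WT held 2 lymphoid-high libraries and Lepob/+ held 1, and without that library the log2FC was -2.75 for Flt3, -2.14 for Xcr1, -1.75 for Siglech and -1.46 for Clec9a, with 0 of the 8 passing and 4 at an unadjusted p under 0.05 (11.4% of all genes in that fit).

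SOD1G93A was compared with WT for the effect of the transgene alone. Flt3, Xcr1, Siglech and Irf8 were higher and Clec9a, Batf3, Zbtb46 and Cd209a lower in the fitted values, with a median log2FC of 0.01 against 0.02 for all genes. By edgeR 0 of the 8 passed (0% of all genes) and 0 of the 8 had an unadjusted p under 0.05 (2.56% of all genes). DESeq2 on the 8 libraries called 0 of the 8 (0.0689% of all genes), and all 8 overlapped between the groups (2.05% of all genes did not). Xcr1 had a log2FC of 0.69 (95% interval -0.99 to 2.38), Flt3 of 0.50 (-1.53 to 2.52), Irf8 of 0.52 (-0.83 to 1.86) and Clec9a of -0.75 (-2.12 to 0.62). Lepob/+ and SOD1G93A share the WT libraries as their control. The interaction of both mutations, the test of whether the ob allele acts differently with and without the transgene, passed for 0 of the 8 genes (0% of all genes) and had an unadjusted p under 0.05 for 0 of the 8 (7.98% of all genes). Its largest values were -2.49 for Flt3 (95% interval -5.41 to 0.42) and -2.26 for Xcr1 (-4.69 to 0.18), and it was -1.67 for Irf8.

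Among the members, profiles over the 16 libraries were compared by the root mean square distance of log2 CPM centred on each gene's mean, where 0 is an identical profile. Batf3 and Zbtb46 were 0.46 apart, Zbtb46 and Cd209a 0.53, Xcr1 and Irf8 0.54, and Flt3 and Xcr1 0.55. Xcr1 and Clec9a, the pair of cDC1 surface receptors, were 0.97 apart, farther than Clec9a and Irf8 at 0.74, and Flt3 and Cd209a were the most distant pair at 1.87. Since genes of low spread are near each other by this measure, the distance between Batf3 and Zbtb46 has to be read against their spread of 0.47 and 0.22. A difference in spread also adds to the distance. The spread was 1.41 for Xcr1, 1.05 for Irf8 and 0.97 for Clec9a. The distances therefore do not show which of Xcr1 and Irf8 Clec9a followed more closely.

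Over all genes tested, the profile nearest to Flt3 was that of Icos, a costimulatory receptor of T cells, at 0.35, followed by Gm614 at 0.35, and that nearest to Xcr1 was Havcr2, the receptor TIM-3, at 0.36, followed by Xkrx at 0.37. The nearest to Irf8 were Dennd1c and Fgd3, both at 0.16, and those to Siglech were Kctd14 at 0.31 and Gm15708 at 0.36. For Clec9a no gene came closer than 0.46 (Gm37285), against its own spread of 0.97, followed by CT009715.1 at 0.52. Batf3 was nearest to Naip5, a sensor of bacterial flagellin, at 0.28 and to Trim36 at 0.28, and Zbtb46 to Ripk2 at 0.12 and Notch1 at 0.14. Cd209a was nearest to its paralog Cd209c at 0.19, and since uniquely mapped reads alone were kept by the authors, any read common to both genes would be missing from either count. The next was Hoxb5 at 0.23. The measure is a description of 16 libraries that differ in lymphoid content, and the part of that difference in the distances was not tested.

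The counts of Clec9a and Xcr1 were set against each other library by library, a choice made after their values were seen. Among the lymphoid-high libraries there were 1.76 Clec9a counts per Xcr1 count in WT replicate 1, 2.09 in WT replicate 2 and 1.34 in Lepob/+ replicate 3, and 0.570, 0.468 and 0.644 in SOD1G93A replicates 1, 2 and 4. The 3 SOD1G93A libraries were thus below the 3 others in this ratio. Among the 10 libraries that were not lymphoid-high the ratio ran from 0.750 in WT replicate 4 to 3.90 in Lepob/+ replicate 1, on 15 to 74 Xcr1 counts, and SOD1G93A replicate 3 had 3.39. These values have no test, since the libraries and the pair of genes were chosen by their values.

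**Figure D4:**
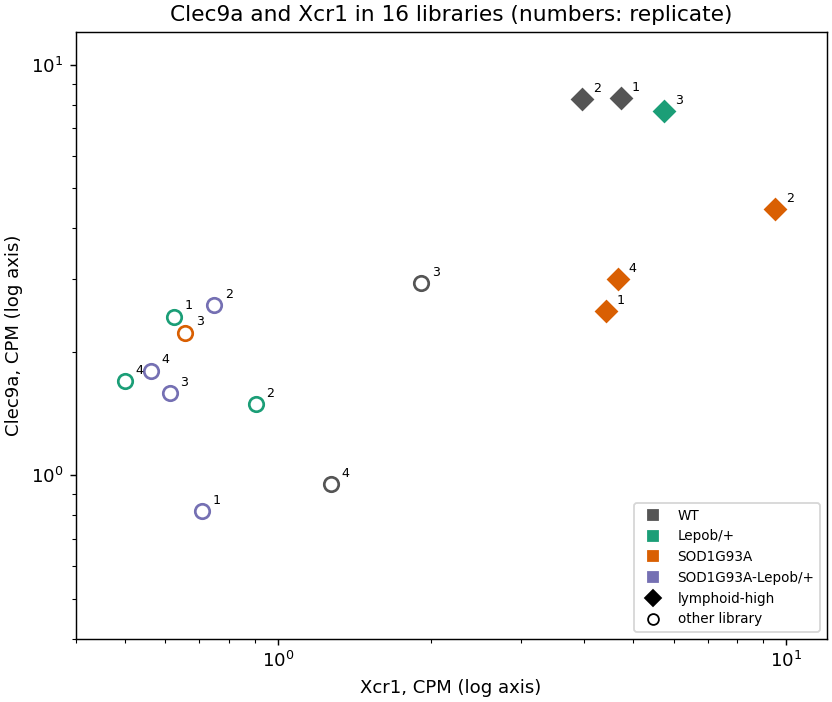
Clec9a against Xcr1 in each library (CPM, both axes log), coloured by genotype and numbered by replicate, with filled diamonds for the 6 lymphoid-high libraries. The 3 SOD1G93A diamonds lie at 2.52 to 4.45 CPM of Clec9a, below the WT and Lepob/+ diamonds at 7.70 to 8.29 CPM.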

How the data were processed

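RNA of iWAT from 16 mice was sequenced by the authors, who trimmed reads with fastp, aligned them to mm10 (GRCm38) with HISAT2 2.1.0 and counted those that mapped uniquely with featureCounts 2.0.2, as the paper and the submitters' processing notes give. Their deposited table holds raw counts that the authors did not normalize. The library kit differs between the labels (NEBNext Ultra) and the paper (TruSeq Stranded), and the strand setting and annotation release are not given in the sources used here, so reads of overlapping or antisense genes could not be told apart. Symbols and exon lengths came from GENCODE M21 (54723 of 54752 IDs matched).

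The analysis used R 4.3.3 and edgeR 4.0.16, with filterByExpr (min.count 10, min.total.count 15), TMM, 1 robust quasi-likelihood fit of 16 libraries and Benjamini-Hochberg adjustment at 0.05. Alternatives were DESeq2 1.42.0, limma 3.58.1 (voom), other scalings and filters, the replicate block, a lymph node covariate and leaving out each library. The procedure was also run on simulated counts. They held no division of the libraries by lymphoid content, so that setting was not tested. The p-values measure the spread between mice, and count limits cover counting error only. Named genes are the 8 members, the 2 nearest profiles of each, up to 3 genes per dendritic cell list with the smallest p for SOD1G93A-Lepob/+ against SOD1G93A, and markers drawn from the 2 most abundant of each other list. Cox6a2 is named as the gene at the median of its list. The Clec9a to Xcr1 ratio was added after the values were seen. The members and lists were chosen with earlier results of these data known. Samples were grouped by the genotype in their labels.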

Additional observations from a re-analysis of the deposited data

Results flagged for a closer look

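Within a genotype, the highest or lowest library of each of the 8 genes was set against the other 3 by the ratio of its gap to the group's range. The ratio was above Dixon's critical value at the 95% level in 6 of 32 cases. A rate of 1 in 20 by chance holds for independent, normally distributed values. These cases share their libraries across the 8 genes and are not independent, and the rule was not run over all genes. The count is therefore not read as an excess over chance. Lepob/+ replicate 3, the lymphoid-high library of that genotype, stood above the other Lepob/+ libraries in 5 genes: Flt3 at 24.4 CPM, Xcr1 at 5.76 CPM, Clec9a at 7.70 CPM, Siglech at 6.41 CPM and Irf8 at 137 CPM. The library labelled SOD1G93A-Lepob/+ replicate 3 stood above its group in Cd209a at 23.6 CPM, and is the library without Xist counts. Clec9a in that Lepob/+ library was near the level of the lymphoid-high WT libraries (8.26 and 8.29 CPM), and Batf3 in it, at 5.95 CPM, was within the range of its group.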

How the results depend on the processing

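Calls among the 8 genes changed with the tool in SOD1G93A-Lepob/+ against SOD1G93A, where edgeR called 0, DESeq2 3 on all libraries and 4 on the compared genotypes, and voom 4. In the other comparisons every alternative run called 0 of the 8. Over all genes, where edgeR called 0 in each, DESeq2 on all libraries called 1 for Lepob/+ against WT, 2 for SOD1G93A against WT, 595 for SOD1G93A-Lepob/+ against SOD1G93A, 77 for SOD1G93A-Lepob/+ against Lepob/+ and 46 for the interaction, and on the compared genotypes 4, 13, 1546 and 34 (the interaction needs all libraries). Voom called 6212 and 2 in the comparisons of the double mutant with SOD1G93A and Lepob/+, edgeR on the compared genotypes 2 in the first, and the fit without the doubted pair of libraries 2 in each. Leaving out each library in turn gave 0 to 1, 0 to 3, 0 to 2 and 0 to 2 calls for SOD1G93A against WT, the double mutant against SOD1G93A and against Lepob/+, and the interaction, where the calls came without SOD1G93A replicate 4, without SOD1G93A-Lepob/+ replicate 3 and without Lepob/+ replicate 4. Why the tools differ was not tested.

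The replicate numbers gave no sign of a pairing of the mice: of 24 pairs of the same number 5 had a correlation of deviations over 0.1 and 8 below -0.1, and 1 of 16 libraries matched its own number best. These deviations also hold the differences in lymphoid content between libraries of a genotype, so they cannot show that a pairing is absent. With the replicate block edgeR called 0 genes in every comparison, and 3 rather than 4 of the 8 genes had an unadjusted p under 0.05 in SOD1G93A-Lepob/+ against SOD1G93A (2692 of 19736 genes).

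Signs that turned, in log2 fold change, were all of differences that edgeR did not call. With voom, Lepob/+ against WT gave 0.071 for Zbtb46 and 0.18 for Cd209a, SOD1G93A-Lepob/+ against Lepob/+ gave 0.24 for Siglech and -0.26 for Cd209a, and the interaction gave 0.012 for Clec9a, -0.21 for Zbtb46, 0.039 for Siglech and -0.039 for Cd209a. With the lymph node covariate, SOD1G93A against WT gave -0.31 for Xcr1, -0.23 for Siglech, 0.0055 for Cd209a and -0.072 for Irf8, SOD1G93A-Lepob/+ against SOD1G93A gave 0.29 for Clec9a and -0.29 for Cd209a, SOD1G93A-Lepob/+ against Lepob/+ gave 0.012 for Flt3 and 0.46 for Siglech, and the interaction gave 0.010 for Flt3, 0.18 for Xcr1, 0.61 for Clec9a, -0.027 for Zbtb46 and 0.69 for Siglech. Without the doubted pair of libraries, Cd209a was at -0.20 and -0.32 in the comparisons of the double mutant with SOD1G93A and Lepob/+, and the interaction was -0.14 for Zbtb46 and -0.11 for Cd209a. Over the fits that leave out 1 library, the ranges that crossed 0 were -1.18 to 0.026 (Irf8) and -0.38 to 0.045 (Batf3) for Lepob/+ against WT, -0.048 to 0.38 (Siglech) and -0.44 to 0.078 (Cd209a) for SOD1G93A against WT, -0.20 to 0.46 (Cd209a) for SOD1G93A-Lepob/+ against SOD1G93A, -2.36 to 0.089 (Flt3), -0.55 to 0.66 (Siglech) and -0.091 to 0.59 (Cd209a) for SOD1G93A-Lepob/+ against Lepob/+, and -0.54 to 0.63 (Clec9a), -0.41 to 0.039 (Batf3), -0.087 to 0.15 (Zbtb46) and -0.72 to 0.50 (Siglech) for the interaction. Scaling and filter settings turned no sign.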
